A study of Gallus gallus with 6 samples.

Results

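The genes described here encode proteins that bring about or steer the decay of messenger RNA: the ZFP36 family, the endoribonuclease Regnase-1 (gene ZC3H12A), the BTG and TOB adaptors, the deadenylase subunit CNOT6L and the exoribonuclease PNPT1. They were chosen by symbol, with results of the comparison below already known. Of 10 symbols, 9 had a row among the 14903 genes of the deposited tables. ZFP36 itself is not analysed here. Transcript levels come from paired-end libraries of total RNA of HD11, a macrophage-like line of chicken labelled wild type. There were 3 libraries titled mock, whose cells the treatment protocol describes as untreated, and 3 of cells that received interferon beta (IFN-beta, recombinant and of chicken) at 100 ng/mL for 3 h. No time is recorded for mock. All 6 libraries come from 1 cell line and carry 1 batch label, and the replicates of a group are described as independent and biological.

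In vertebrate cells most mRNAs begin to decay when their poly(A) tail is shortened, mainly by the CCR4-NOT complex, after which the cap is removed and the body is degraded from either end. ZFP36-type proteins bind AU-rich elements, common in the 3′ untranslated regions of cytokine and early response mRNAs, and recruit CCR4-NOT. BTG and TOB proteins bind its catalytic subunits of the CAF1 type. Regnase-1 cuts stem-loops in inflammatory mRNAs of mammals directly. In macrophages such proteins are known for limiting how long inflammatory transcripts last.

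Libraries held 15665594 to 15885227 counts, spread over 13388 to 13465 detected genes. Levels are given as CPM, counts scaled to the effective library size, or as TPM, which is also corrected for gene length and is the scale used to compare genes with each other. Of 11 matched and tested macrophage markers, SPI1 averaged 558 CPM in mock and 870 CPM with IFN-beta, and CSF1R averaged 846 and 795 CPM. CEBPB (52.4 and 348 CPM) and PTPRC (273.5 and 551 CPM) were also higher with IFN-beta, and ITGB2 (112 and 73.0 CPM) was lower. The summed level of the 12 markers was 3814 to 3925 CPM in mock and 5058 to 5151 CPM in IFN-beta. The filter removed LYZ (2 reads over the mock libraries, 6 over the others). Marker sums of other lineages were lower: 2.66 to 4.20 CPM for T cells, 0.196 to 0.679 CPM for fibroblasts, 6.43 to 7.99 CPM for erythroid cells, 56.9 to 82.8 CPM for thrombocytes and 17.97 to 40.1 CPM for B cells, from 7, 6, 2, 5 and 6 matched genes of 8 each. The B cell sum, 17.97 to 19.8 CPM in mock and 33.4 to 40.1 CPM in IFN-beta, was mostly BCL6 (14.2 and 34.7 CPM), a repressor that macrophages also express, while CD79B had 1 and 2 reads. The erythroid sum was almost all TAL1 (7.69 CPM in mock and 6.98 CPM in IFN-beta), while HBBA had 3 and 1 reads. The thrombocyte sum was 79.9 to 82.8 CPM in mock and 56.9 to 60.3 CPM in IFN-beta, mostly from SELP and F13A1, and ITGA2B had 4 reads in each group. Their part in the results below was not tested. In such bulk samples a lower level can come from fewer cells of a type or from less RNA per cell, which cannot be told apart.

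BTG2, ZC3H12A, CNOT6L, ZFP36L1, TOB1 and PNPT1 were higher in IFN-beta than in mock, in that order from the largest fold to the smallest, and BTG1, ZFP36L2 and TOB2 were not called. The 6 were called higher by edgeR's quasi-likelihood test at a Benjamini-Hochberg adjusted p under 0.05 over all genes. None was called lower, with 0 at an unadjusted p under 0.05 and 0 by DESeq2. The background was 46.7% of 11091 tested genes called, 24.3% higher and 22.4% lower. Because the genes were picked with this contrast known, nothing is read from their count or from their median log2 fold change. The median log2 fold change of the 9 was 0.36, against -0.001 over all tested genes. These medians were 0.27 and -0.09 under library size alone and 0.24 and -0.10 on log2(TPM + 1), so both moved with the scaling. No count of the 9 genes was fractional in any library. The authors' deposited table gave log2 fold changes within 0.01 of the present ones for 9 of 9 genes. Both describe the same 6 libraries, so this is no independent check. By the authors' q under 0.05, 6 of the 9 genes passed, beside 27.09% of 14879 genes.

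**Figure D1:**
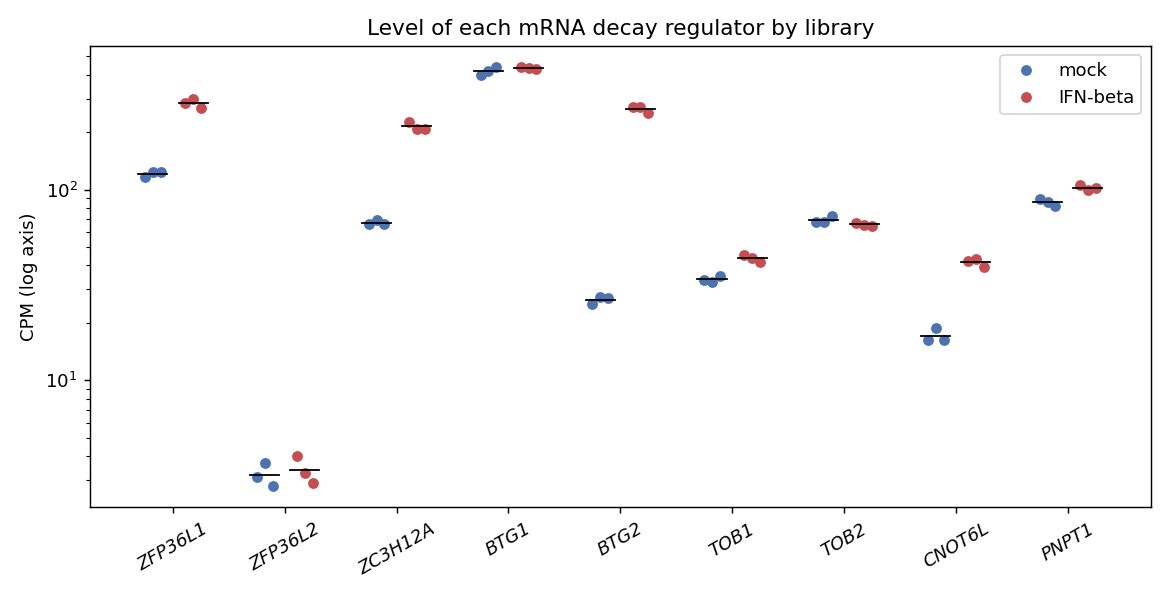
Level of each gene in CPM on a log axis, with 1 point per library, mock in blue and IFN-beta in red, and a black line at the group mean of 3 libraries. The groups of BTG2 are farthest apart, at 25.2 to 27.2 CPM in mock and 252.5 to 272 CPM in IFN-beta, while those of BTG1 and ZFP36L2 overlap.

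Among the RNA-binding proteins, ZFP36L1, an AU-rich element binder that recruits deadenylases, was more abundant than ZFP36L2, the other family gene measured. It stood at 116, 123 and 124 CPM in mock replicates 1, 2 and 3 and at 285, 298 and 269 CPM in IFN-beta replicates 1, 2 and 3. The groups did not overlap, and the lowest IFN-beta library was replicate 3. The fitted log2 fold change was 1.23 (approximate SE 0.04), a 2.35-fold difference. ZFP36L2, its close paralogue, stood at 3.09, 3.69 and 2.78 CPM in mock and at 4.03, 3.26 and 2.88 CPM in IFN-beta. These groups overlapped, each library had only 44 to 62 reads, and the coefficient of variation was 14.5% in mock and 17.3% in IFN-beta. Its log2 fold change was 0.09 (SE 0.17), with a direction that flipped under library size alone (-0.003) and on log2(TPM + 1) (-0.02). Per length, ZFP36L1 was 52.4 times as abundant as ZFP36L2 in mock (45.6 to 60.5 over libraries) and 116 times in IFN-beta (96.5 to 127), a ratio that rests on the few ZFP36L2 reads.

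ZC3H12A encodes Regnase-1, which in mammals cleaves mRNAs such as that of interleukin 6. It stood at 65.9, 69.3 and 66.0 CPM in mock and at 227.5, 208 and 208 CPM in IFN-beta. Every IFN-beta library was above every mock library, and the spread within a group was 2.88% and 5.26% of the mean. The log2 fold change was 1.68 (SE 0.05), a 3.20-fold difference that ranked 166 from the top of 11091.

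The BTG and TOB genes encode antiproliferative proteins that bind CCR4-NOT through CNOT7 or CNOT8. BTG2, an early response gene, stood at 25.2, 27.2 and 27.0 CPM in mock and at 272, 271 and 252.5 CPM in IFN-beta, with a log2 fold change of 3.32 (SE 0.05) that ranked 53 from the top. Its paralogue BTG1 stood at 398, 419.7 and 440.3 CPM in mock and at 439, 436 and 429 CPM in IFN-beta. The 3 IFN-beta values lay within the range of the mock values. The log2 fold change of BTG1 was 0.05 (SE 0.04), and its direction flipped under library size alone (-0.04) and on log2(TPM + 1) (-0.06). Without mock replicate 3 it was 0.09 and BTG1 was called.

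TOB1 stood at 33.6, 32.6 and 35.3 CPM in mock and at 45.2, 43.5 and 41.9 CPM in IFN-beta. These groups did not overlap, at a log2 fold change of 0.36 (SE 0.06). TOB2 stood at 67.9, 67.5 and 72.8 CPM in mock and at 67.1, 65.6 and 64.5 CPM in IFN-beta. The groups were adjacent without overlap, with every IFN-beta library lower. Its log2 fold change was -0.08 (SE 0.05), and under upper quartile factors (-0.14), library size alone (-0.17) and log2(TPM + 1) (-0.19), TOB2 was called lower. Counting TOB2, 7 of the 9 genes had groups that did not overlap, 6 higher and 1 lower, where 27.5% of all tested genes were higher and 26.3% lower without overlap.

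Per length, BTG1 dominated the BTG and TOB genes, while BTG2 was the least abundant of them in mock and came next after BTG1 in IFN-beta. The summed level of the 4 genes was 522 ± 16.0 TPM in mock and 610.0 ± 25.0 TPM in IFN-beta (SD, n = 3 each). BTG1 made up 87.2 ± 0.303% of it in mock and 71.5 ± 0.478% in IFN-beta, and BTG2 made up 2.43 ± 0.0671% and 19.2 ± 0.420%. TOB1 was at 5.65 ± 0.218% and 5.74 ± 0.108%, and TOB2 at 4.71 ± 0.120% and 3.53 ± 0.0237%. BTG1 was thus 36.0 times as abundant as BTG2 in mock (35.03 to 36.9) and 3.73 times in IFN-beta (3.66 to 3.85). The ratio of TOB1 to TOB2 in TPM was 1.20 in mock (1.19 to 1.22) and 1.63 in IFN-beta (1.60 to 1.66).

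**Figure D2:**
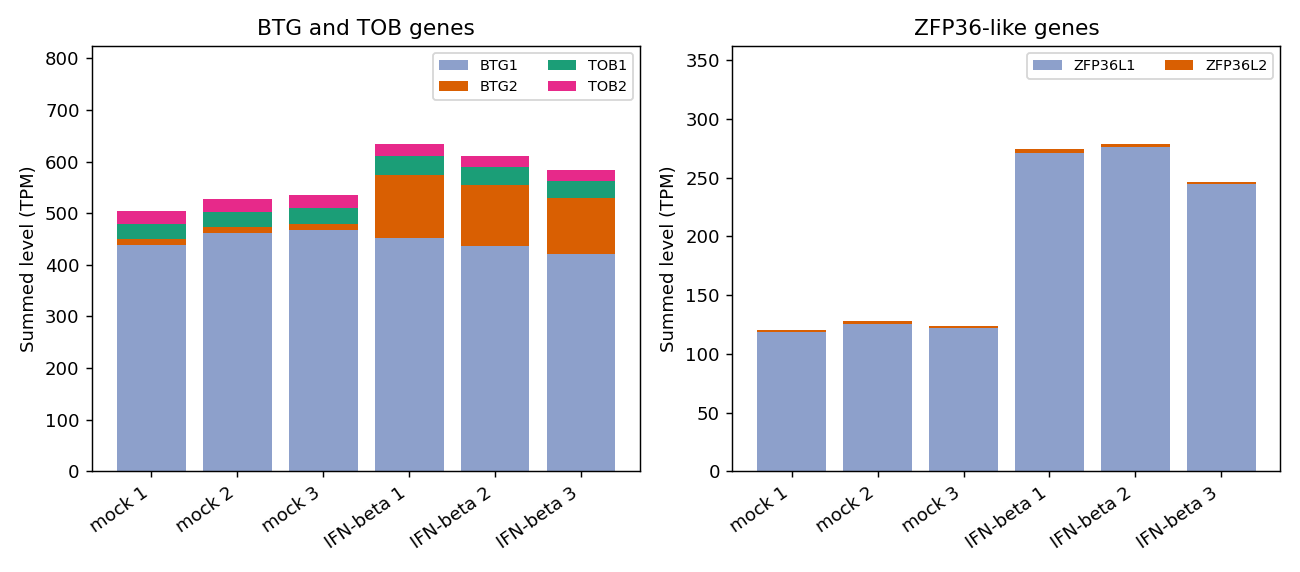
Summed TPM of the BTG and TOB genes (left) and of the ZFP36-like genes (right), with 1 bar per library, stacked by gene from 0. BTG2 is a thin layer at 12.2 to 13.2 TPM in the mock bars and a broad one at 109 to 123 TPM in the IFN-beta bars, over a BTG1 layer of 421 to 467 TPM in all 6.

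CNOT6L is a catalytic deadenylase subunit of CCR4-NOT and a paralogue of CNOT6. It stood at 16.3, 18.7 and 16.3 CPM in mock and at 42.3, 43.5 and 39.4 CPM in IFN-beta, so that the groups did not overlap. The log2 fold change was 1.28 (SE 0.07). Per length CNOT6L was among the scarcer of the 9 genes, at 3.04 ± 0.284 TPM in mock and 6.82 ± 0.445 TPM in IFN-beta. Its paralogue CNOT6 fell from 123 ± 5.02 to 102 ± 2.67 CPM, by 0.26 ± 0.04 (SE) on the log2 scale, at an edgeR adjusted p of 5.17e-05 (Benjamini-Hochberg). The ratio of CNOT6 to CNOT6L in TPM was 9.63 in mock (8.90 to 10.4) and 3.30 in IFN-beta (3.06 to 3.52).

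PNPT1 encodes polynucleotide phosphorylase, an exoribonuclease of mitochondria that was isolated as an interferon-induced gene in human cells. It stood at 89.2, 86.6 and 82.4 CPM in mock and at 106, 99.0 and 101 CPM in IFN-beta. The groups did not overlap, but the log2 fold change was only 0.25 (SE 0.05), or 1.19-fold. On log2(TPM + 1), with a value of 0.13, PNPT1 was not called.

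Ordered by level in mock, in TPM, the genes ran from BTG1 (455 ± 15.3) and ZFP36L1 (122 ± 3.56) through PNPT1 (44.0 ± 2.53), TOB1 (29.5 ± 0.684), TOB2 (24.6 ± 0.583), ZC3H12A (22.9 ± 0.941) and BTG2 (12.7 ± 0.495) to CNOT6L and ZFP36L2 (2.36 ± 0.372). No pair of neighbours in this order overlapped over the 3 libraries, though ZC3H12A, up to 23.9 TPM, came close to TOB2, from 24.2 TPM, and ZFP36L2, up to 2.75 TPM, to CNOT6L, from 2.83 TPM. BTG1 was above 97.1% of tested genes in mock, ZFP36L1 above 88.5%, BTG2 above 41.9%, CNOT6L above 18.3% and ZFP36L2 above 15.6%. In IFN-beta, BTG2 (117 ± 7.02) came after BTG1 (436 ± 15.3) and ZFP36L1 (264 ± 17.0), and ZC3H12A (67.6 ± 4.89) came before PNPT1 (48.2 ± 2.63), TOB1 (35.1 ± 2.07), TOB2 (21.5 ± 0.870), CNOT6L and ZFP36L2 (2.32 ± 0.448).

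The profiles most like these were sought over the 6 libraries by Euclidean distance between centred log2 CPM, among tested genes of at least 5 CPM. For BTG2 they were RNF213, a large ubiquitin ligase (distance 0.17), and IRF1, a transcription factor (0.25). For ZC3H12A they were TRIB2, a pseudokinase (0.10), and CMTR1, an mRNA cap methyltransferase (0.14). MPEG1, a pore-forming macrophage protein, was nearest both to CNOT6L (0.08) and to ZFP36L1 (0.11), followed by NAMPT for CNOT6L (0.19) and GBP4L for ZFP36L1 (0.14). TOB1 lay next to NKRF and CIART (0.06 each), PNPT1 to DDX3X (0.02) and DNM1L (0.03), BTG1 to GTF2E2 (0.04) and SNRNP40 (0.05), and TOB2 to CDYL and ANKRD40L (0.04 each). GTF2E2 and SNRNP40 changed direction under library size alone (-0.03 and -0.01), where the median over all tested genes was -0.09. The small folds of GTF2E2 and SNRNP40 match that of BTG1 by the way they were chosen. The same holds for the other genes named by profile, such as RNF213 (log2 fold change 3.355) and IRF1 (3.342) beside BTG2 (3.324). Nothing is read from these shared changes.

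By the order of protein-coding genes in RefSeq's GRCg7b, 9 direct neighbours of these genes were tested. The largest log2 fold changes among these were -0.36 (SE 0.08) for TEF, next to TOB2, and 0.32 (SE 0.07) for MRPL1, next to CNOT6L. For ZFP36L1 both neighbours were tested, at 0.18 for SRSF5A and 0.14 for RAD51B, and for ZC3H12A the tested neighbour MEAF6 was at -0.04. These, MRPL1, SPAG9 (0.13, next to TOB1) and PPP4R3B (-0.05, next to PNPT1) changed less than the genes they lie beside. TEF and PHF5A (0.20) both changed more than TOB2 (-0.08) between them. THADA was at -0.15 (SE 0.065, edgeR adjusted p 0.0655) beside ZFP36L2 at 0.09 (SE 0.17). Neither was called, so which of them changed more cannot be told. BTG1 and BTG2 had no tested neighbour.

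The wider decay pathway was described with 10 lists chosen by function, 168 genes besides the 9, of which 161 were tested. Of these, 60 rose, 23 fell and 78 did not pass, at a median log2 fold change of 0.07. This split moved with the scaling, being 44 to 43 with library size alone (median -0.02) and 38 to 44 of 156 genes on log2(TPM + 1) (-0.04). Over all genes it was 2697 to 2480 in the reported fit, 1734 to 4008 with library size alone and 1376 to 3823 on log2(TPM + 1). Under upper quartile factors it was 2020 to 3356, and by DESeq2 2273 to 1899 of 14892 genes. In the reported fit that is 24.3% of all tested genes higher and 22.4% lower, the background for each count of that fit by list below. Changes over 2-fold were seen in 15 of the 161, beside 557 of all 11091 tested genes. Of the 15, 13 were in the list of transcripts reported as targets. Among these 13, CSF3, LIF and IL8L1 had 6, 8 and 19 reads over the mock libraries. They passed the filter on low counts only through the IFN-beta libraries. Among 117 tested genes of the decay machinery and RNA-binding regulators, without the kinases and the targets, 35 rose and 18 fell (22 and 36 under library size alone), and only ARID5A and ZC3H12C passed 2-fold.

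**Figure D3:**
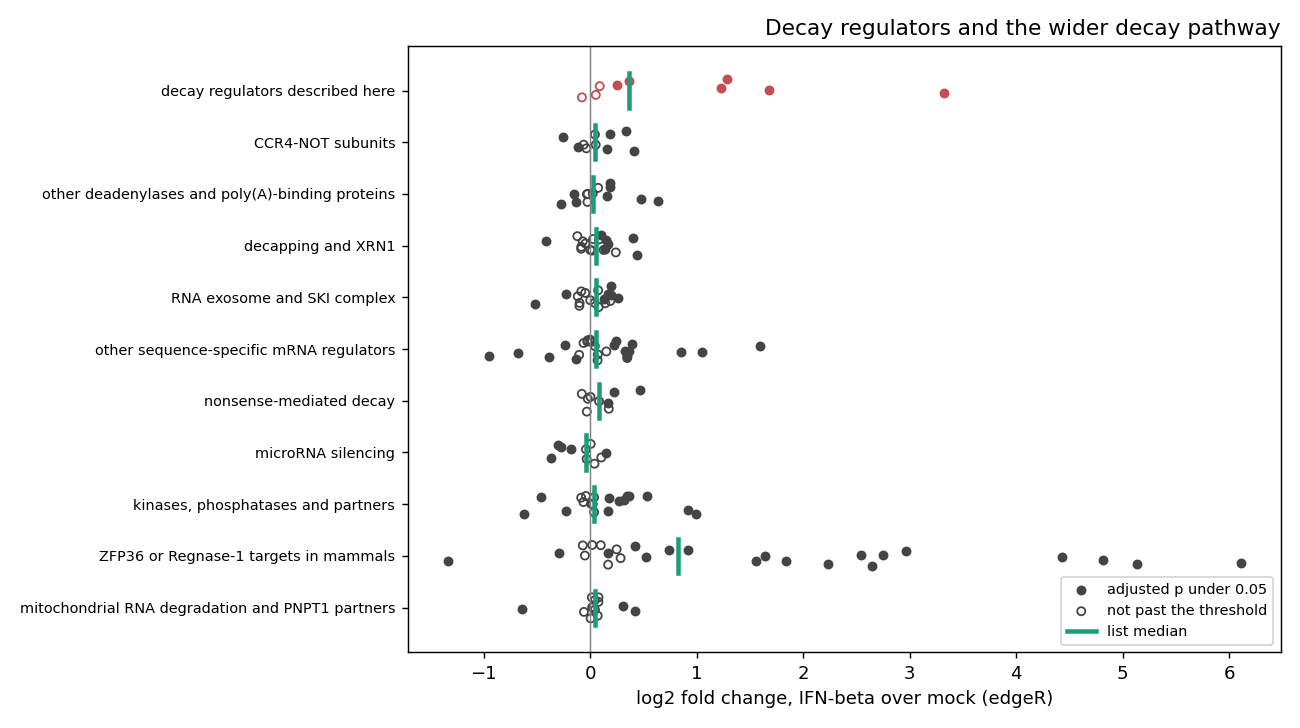
Log2 fold change of IFN-beta over mock from edgeR for each tested gene, by list, filled where the adjusted p was under 0.05, with the list median in green. The 9 decay regulators in red reach 3.32, while points of the CCR4-NOT list lie between -0.26 and 0.41. CNOT6L, also a CCR4-NOT subunit, is plotted among the 9, at 1.28.

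Of 10 tested CCR4-NOT subunits, 4 rose and 2 fell, with 2 and 4 under library size alone. CNOT4, a ubiquitin ligase of the complex, rose from 40.6 ± 2.36 to 54.1 ± 1.40 CPM, and TNKS1BP1, an associated protein, rose from 26.4 ± 1.02 to 33.4 ± 1.51 CPM, a call lost on log2(TPM + 1) with no filter (limma, adjusted p 0.075). Named after their values were seen, the subunits that BTG and TOB proteins bind were close to level: CNOT7 rose 1.11-fold (edgeR adjusted p 0.00177, Benjamini-Hochberg, but 0.164 under library size alone and 0.42 to 0.477 in the 3 limma fits on TPM), and CNOT8 stood at 81.1 ± 1.40 and 77.7 ± 2.11 CPM and did not pass, though it was called lower under upper quartile factors, library size alone and log2(TPM + 1). The scaffold CNOT1 was 1.09-fold lower (edgeR adjusted p 0.0201), and when mock replicate 1, mock replicate 2 or IFN-beta replicate 3 was left out this call was lost (adjusted p 0.0913 to 0.123). Among 13 other deadenylases and poly(A)-binding proteins 5 rose and 3 fell (3 and 4 under library size alone). NOCT, a protein of the deadenylase family with a circadian rhythm, rose from 25.4 ± 0.793 to 39.4 ± 1.62 CPM, TOE1, a nuclear deadenylase, rose from 50.9 ± 0.948 to 71.0 ± 3.40 CPM, and PAN3, of the PAN2-PAN3 deadenylase, fell from 88.0 ± 4.70 to 72.9 ± 2.57 CPM.

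No tested gene of the decapping and exosome lists passed 2-fold. Of 18 tested decapping genes, XRN1 included, 6 rose and 1 fell, against 2 and 5 under library size alone and 2 and 1 by DESeq2. The paralogous decapping activators went apart, DCP1A rising from 46.4 ± 3.09 to 61.3 ± 2.10 CPM and DCP1B falling from 21.8 ± 1.48 to 16.4 ± 0.462 CPM, while EDC4, a decapping scaffold, rose from 133 ± 6.44 to 180.0 ± 6.68 CPM. In the RNA exosome and SKI list 5 of 18 rose and 2 fell (2 and 5 under library size alone). These shares, 27.8% and 11.1%, were near and below the 24.3% and 22.4% of all tested genes. HBS1L rose 1.20-fold, and EXOSC6, an exosome subunit, fell from 5.76 ± 0.385 to 4.02 ± 0.210 CPM. SUPV3L1, a helicase partner of PNPT1 in mitochondria that was placed in this list, rose 1.15-fold and is among the 5. On log2(TPM + 1) neither HBS1L nor SUPV3L1 was called (limma, adjusted p 0.114 and 0.165).

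Of 9 tested genes of nonsense-mediated decay, 3 rose and 0 were called lower, with 0 lower at an unadjusted p under 0.05 and 0 by DESeq2, but 2 and 2 under library size alone. UPF2, an activator of the helicase UPF1, rose from 80.1 ± 4.47 to 111 ± 7.78 CPM, SMG1, its kinase, rose 1.17-fold, and SMG5 rose 1.12-fold, a call lost by DESeq2 (adjusted p 0.1), under upper quartile factors, library size alone and log2(TPM + 1), and without mock replicate 1 or IFN-beta replicate 2. SMG1 was not called on log2(TPM + 1). In the microRNA silencing list 1 of 10 rose and 4 fell (0 and 5 under library size alone), among them AGO4 (1.29-fold lower), TNRC6C (1.21-fold lower) and TNRC6B (1.13-fold lower), which carry out silencing and recruit CCR4-NOT. Of 13 genes of mitochondrial RNA processing around PNPT1, SUPV3L1 not among them, 2 rose and 1 fell (2 and 2 under library size alone). Both shares, 15.4% and 7.69%, were below those of all tested genes. TRMT10C, of the mitochondrial RNase P, rose from 58.4 ± 3.77 to 78.2 ± 2.60 CPM, FASTKD5 rose 1.24-fold, and FASTKD1 fell from 16.7 ± 1.28 to 10.7 ± 0.734 CPM.

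Other RNA-binding regulators varied more. Of 26 tested, 9 rose and 5 fell (9 and 9 under library size alone, 9 and 2 of 29 by DESeq2). ARID5A, which in mammals protects interleukin 6 mRNA from Regnase-1, rose from 37.7 ± 0.370 to 113.5 ± 4.58 CPM (edgeR adjusted p 7.31e-16, Benjamini-Hochberg), which on the log2 scale is 1.59 (SE 0.05) beside 1.68 for ZC3H12A. Within the Regnase family, ZC3H12C rose from 5.90 ± 1.06 to 12.2 ± 0.663 CPM, by 1.05 on the log2 scale (SE 0.12, edgeR adjusted p 4.63e-07). SAMD4A, a relative of the fly mRNA repressor Smaug, rose 1.80-fold. Named after their values were seen, CPEB3, a cytoplasmic polyadenylation element binder, had the lowest fold of the list and fell from 12.0 ± 0.815 to 6.21 ± 0.856 CPM (edgeR adjusted p 8.53e-07), ZC3H12B fell from 29.3 ± 3.15 to 22.4 ± 1.15 CPM (edgeR adjusted p 0.000399), and N4BP1, an endoribonuclease that restricts viral RNA in human cells, rose from 60.9 ± 1.58 to 78.2 ± 2.61 CPM. ZC3H12D was lower, on only 68 mock and 40 IFN-beta reads (edgeR adjusted p 0.0452), and so was RC3H1, the stem-loop binder roquin-1 (1.095-fold, adjusted p 0.0324). DESeq2 called neither (0.239 and 0.0926), and each lost its call when any of mock replicates 1 and 2 and IFN-beta replicates 2 and 3 was left out, ZC3H12D also without mock replicate 3. The ratio of ZC3H12A to ZC3H12B in TPM was 4.51 in mock (3.99 to 4.95) and 18.8 in IFN-beta (18.7 to 18.8).

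**Figure D4:**
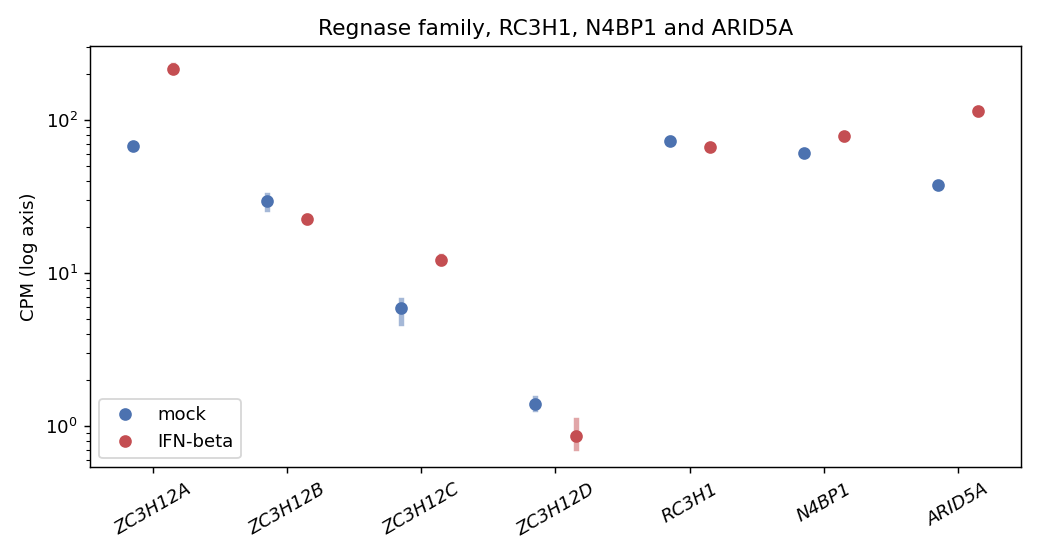
CPM on a log axis for the Regnase family, RC3H1, N4BP1 and ARID5A, with group means of 3 libraries as points and lowest to highest library as bars, mock in blue and IFN-beta in red. ZC3H12A, ZC3H12C, N4BP1 and ARID5A lie higher in IFN-beta, and ZC3H12B lies lower, at 21.7 to 23.7 CPM against 26.1 to 32.3 CPM.

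Kinases, phosphatases and partners that act on ZFP36 proteins, Regnase-1 or the BTG proteins in mammals numbered 19 tested, of which 9 rose and 3 fell (7 and 5 under library size alone). MAPK14, which encodes p38 alpha, a kinase whose pathway inactivates ZFP36 proteins, fell from 317.5 ± 8.76 to 206 ± 5.80 CPM, by 0.62 ± 0.04 (SE) on the log2 scale, at an edgeR adjusted p of 2.68e-11 (Benjamini-Hochberg). The p38 paralogues, named after their values were seen, went the other way. MAPK11 rose from 116.5 ± 5.03 to 141 ± 5.22 CPM and MAPK12 from 63.5 ± 2.40 to 81.9 ± 2.57 CPM (edgeR adjusted p 2.87e-05 and 3.53e-06). MAPKAPK2, the kinase downstream of p38 that phosphorylates ZFP36, stood at 171 ± 3.51 and 163 ± 0.983 CPM and did not pass (adjusted p 0.156), though it was called lower under upper quartile factors, library size alone and log2(TPM + 1). PPP2CA, a catalytic subunit of the phosphatase that opposes it, rose from 146 ± 6.43 to 185 ± 4.91 CPM. PPP2CB, the other catalytic subunit listed, was named after its values were seen. It stood at 162 ± 1.01 and 163 ± 0.487 CPM and did not pass (edgeR adjusted p 0.841). Per length PPP2CB was the more abundant in mock, at 253.5 TPM beside 128 TPM for PPP2CA. The gene deposited as RPS6KA1L, named RPS6KA1 by RefSeq, fell 1.37-fold.

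Transcripts reported in mammals as targets of ZFP36 proteins or Regnase-1 rose in 17 of 26 tested genes and fell in 2, at a median log2 fold change of 0.83, with 16 and 2 under library size alone. Of 29 matched genes, those low in both groups were removed by the filter on low counts. It keeps genes low only in mock, here CSF3, LIF and IL8L1, whose rise this selection favours. IL1B, an inflammatory cytokine, and NFKBIZ, a nuclear NF-kappaB regulator, rose 28.1-fold and 4.70-fold, and the chemokine gene IL8L2 rose 35.1-fold (edgeR adjusted p 3.75e-20, 2.71e-18 and 2.11e-19, Benjamini-Hochberg). Named after their values were seen, IL6 (4.81 ± 0.209 CPM in mock, 5.71 ± 0.910 CPM in IFN-beta) did not pass, nor did PTGS2 (3.76 ± 0.591 and 4.59 ± 0.676 CPM), while IL12B fell from 8.20 ± 0.489 to 3.24 ± 0.275 CPM. Whether these levels follow from decay was not measured, since the libraries hold total levels only.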

How the data were processed

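Gene expression was measured in 3 mock and 3 IFN-beta libraries of HD11 cells, grouped by title. The authors deposited expected counts per gene, of which 2322 genes had values that are not whole, and TPM, both over 14903 genes. A further table holds the authors' log2 fold changes, p-values and q-values of 14879 genes. GRCg6a and DESeq2 are the build and tool named in the submitters' processing notes. For the aligner, counter, annotation and strandedness, the sources used here give nothing, so reads of overlapping or near-identical genes may be divided in ways not known.

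After rounding, the test of the expected counts was edgeR 4.0.16 (R 4.3.3): filterByExpr at its defaults (11091 genes kept, 3812 removed), TMM factors (0.963 to 1.04), glmQLFit and glmQLFTest with the group as the only term, and Benjamini-Hochberg adjustment over all tested genes at 0.05. The test was also run on simulated counts with a common dispersion and few changed genes. That run does not bear on the scaling or on data with as many calls as here. CPM use effective library sizes. Log2 fold changes are edgeR's, and their SE is the absolute value over the square root of F, an approximation. TPM shares are group means ± SD with no test. Alternatives used DESeq2 1.42.0, other scalings and filters, a replicate block, limma 3.58.1 on log2(TPM + 1) or log2(TPM + 0.1), keeping genes that average 1 TPM or more or all genes, and leaving out each library. With 3 libraries against 3, the smallest exact permutation p is 0.1. Replicates were not copies of one library: chi-square over its degrees of freedom was 1.67 to 4.48 for pairs of a group. The p-values set the group difference against the spread between these libraries, which come from 1 cell line and carry 1 batch label.

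The 9 genes, the 10 pathway lists and the tests were chosen with earlier results of these data known. Of 186 names in the lists, 17 were not matched and 3 were matched through RefSeq's GRCg7b names by gene identifier. The rule for named genes took the 9 genes and up to 3 called genes of smallest adjusted p from each list (or the 2 of highest level). For each of the 9 with at least 5 CPM it also took the 2 genes outside the 9 of nearest profile (prior count 2). Other genes are said to be named after their values were seen. No sequence or coordinate is given.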

Additional observations from a re-analysis of the deposited data

How the results depend on the processing

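Of 68 named genes followed here (PPP2CB was not), 48 kept direction and side of the threshold under all 16 alternatives to the reported edgeR fit. In the 9 decay regulators, BTG2 (log2 fold change 3.11 to 3.36), ZC3H12A (1.52 to 1.71), ZFP36L1 (1.11 to 1.27), CNOT6L (0.96 to 1.36) and TOB1 (0.24 to 0.39) did so. BTG1 turned to -0.009 under upper quartile factors, -0.041 under library size alone and -0.062 in the 3 limma fits on TPM. ZFP36L2 turned to -0.003 under library size alone, -0.019 on log2(TPM + 1) with or without a filter, -0.027 on log2(TPM + 0.1), -0.000 without mock replicate 3 and -0.050 without IFN-beta replicate 1, within a range of -0.050 to 0.212 over the 6 fits that each leave out 1 library. GTF2E2 turned to -0.027 under library size alone, -0.047 on log2(TPM + 1) with or without a filter and -0.048 on log2(TPM + 0.1), and SNRNP40 to -0.014 and, in the TPM fits, -0.035. Under these scalings the median over all genes was -0.06 with upper quartile factors, -0.09 with library size alone and -0.10 and -0.11 on log2(TPM + 1) and log2(TPM + 0.1).

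The count of the 9 genes called lower, 0, became 1 (TOB2) under upper quartile factors, library size alone and the 3 TPM fits. Among pathway genes, 60 higher and 23 lower became 48 and 35 under upper quartile factors, 44 and 43 under library size alone, 38 and 44 on log2(TPM + 1) and log2(TPM + 0.1), and 37 and 39 on log2(TPM + 1) with no filter. Over all genes, 2697 higher and 2480 lower became 1734 and 4008 under library size alone, 1376 and 3823 on log2(TPM + 1), 1377 and 3815 on log2(TPM + 0.1) and 1395 higher with no filter. Under upper quartile factors they became 2020 and 3356. In the same TPM fits (log2(TPM + 1), log2(TPM + 0.1), then no filter), CCR4-NOT subunits gave 2, 2 and 1 higher and 4, 4 and 4 lower, other deadenylases 2, 2 and 2 higher and 5, 5 and 5 lower, decapping genes 2, 2 and 2 higher and 4, 4 and 3 lower, the exosome list 0, 0 and 0 higher and 6, 6 and 5 lower, other RNA-binding regulators 8, 8 and 9 lower, nonsense-mediated decay 1, 1 and 1 higher and 1, 1 and 1 lower, microRNA silencing 0, 0 and 0 higher, kinases and partners 8, 8 and 5 lower, and mitochondrial RNA genes 2, 2 and 2 lower. Under library size alone and then upper quartile factors, CCR4-NOT subunits gave 2 higher and 4 lower under the first, other deadenylases 3 and 3 higher, decapping genes 2 and 2 higher and 5 and 3 lower, the exosome list 2 and 2 higher and 5 and 4 lower, other RNA-binding regulators 9 lower under the first, nonsense-mediated decay 2 and 1 lower, microRNA silencing 0 and 0 higher, kinases 5 and 5 lower, and mitochondrial RNA genes 2 and 2 lower. With DESeq2, decapping genes gave 2 higher, the exosome list 1 lower, other RNA-binding regulators 2 lower of 29 and microRNA silencing 0 higher. DESeq2 also called fewer genes across the whole set, 2273 higher and 1899 lower of 14892. The TPM fits differ from the reported fit in measure, filter and test as well as in scaling. DESeq2 differs in its test and filter too, and with DESeq2 size factors within edgeR decapping genes gave 6 higher. The cause of these shifts was not tested. The median log2 fold change of pathway genes minus that of all genes was 0.071 both in the reported fit and under library size alone. For the 9 genes it was 0.364 in both.

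Without 1 library in turn, the calls among the 9 genes were 6 to 7 higher and 0 to 0 lower, and among pathway genes 52 to 62 higher and 16 to 28 lower. Decapping genes ran from 2 to 6 higher and 1 to 5 lower (5 lower without mock replicate 3, 2 higher without IFN-beta replicate 2, and 3 higher without mock replicate 1 or IFN-beta replicate 3). The exosome list ran from 2 to 6 higher (2 without IFN-beta replicate 3) and 1 to 2 lower (1 without mock replicate 2 or IFN-beta replicate 1 or 3), CCR4-NOT subunits 1 to 2 lower (1 without mock replicate 1 or 2 or IFN-beta replicate 3), and other RNA-binding regulators 2 to 5 lower (2 without mock replicate 2 or IFN-beta replicate 3, 3 without mock replicate 1 or IFN-beta replicate 2). Nonsense-mediated decay had 0 to 1 lower (1 without mock replicate 3) and microRNA silencing 0 to 2 higher (2 without mock replicate 1, 0 without mock replicate 3 or IFN-beta replicate 1 or 2).

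Same-numbered libraries of the groups deviated together only weakly (r 0.0831, 0.0755 and 0.0675 over genes), so the numbers were not taken as pairs, although each library correlated best with its own number. With the replicate number as a block, 3077 genes were higher and 2792 lower, pathway genes 70 and 25, the 9 genes 6 and 0, the exosome list 8 higher, mitochondrial RNA genes 4 higher and nonsense-mediated decay 1 lower. As shares of CPM in place of TPM, BTG2 made up 4.82% of the BTG and TOB sum in mock and 32.8% in IFN-beta, and ZFP36L1 97.4% and 98.8% of the ZFP36L1 and ZFP36L2 sum against 98.1% and 99.1% in TPM, since CPM do not correct for length. Depth limits ZFP36L2, with at most 62 reads in a library.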

Other observations

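Within the IFN-beta group, replicate 3 had the lowest CPM of the 3 libraries for 8 of the 9 decay regulators, while it was the lowest for 32.97% of all tested genes. IFN-beta replicate 1 was the highest for 7 of the 9, and for 34.4% of all tested genes. In the mock group the lowest library was replicate 1 for 4, replicate 2 for 2 and replicate 3 for 3 of the 9. The 9 genes are not independent of each other within a library, and no test was made.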
